A study of Homo sapiens with 16 samples.

Results

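The unfolded protein response (UPR) of the endoplasmic reticulum (ER) has other stress sensors beside IRE1α, and their genes are described here in LNCaP prostate cancer cells: the membrane-bound transcription factors ATF6 and ATF6B, the proteases MBTPS1 and MBTPS2 that release them, and the 4 eIF2α kinases EIF2AK1, EIF2AK2, EIF2AK3 and EIF2AK4. These 8 genes were chosen by symbol, with earlier results of these data known, and all 8 were found among the 58051 Ensembl genes of the count table.

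ATF6 is held in the ER by the chaperone BiP and moves to the Golgi under stress, where the site-1 protease (MBTPS1) and then the site-2 protease (MBTPS2) cut it, so that its cytosolic part enters the nucleus and activates chaperone genes. The eIF2α kinases phosphorylate the translation initiation factor eIF2 and thereby lower protein synthesis while favouring the translation of ATF4. EIF2AK3 (PERK) senses ER stress, EIF2AK2 (PKR) senses double-stranded RNA, EIF2AK1 (HRI) responds to haem shortage and mitochondrial stress, and EIF2AK4 (GCN2) responds to uncharged tRNA. Sensor activity itself is set by protein folding, cleavage and phosphorylation, which RNA sequencing does not measure.

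RNA-seq was performed in 2 experiments on LNCaP, an established human prostate cancer line, with 4 libraries in each of 4 groups. In the knockdown experiment, cells carried either Allstar control siRNA (siCtrl) or an siRNA against XBP1 (siXBP1) for 2 days. In the inhibitor experiment, cells received DMSO (Vehicle) or 10 µM MKC8866, an inhibitor of the IRE1α RNase, for 24 h. All 16 libraries, controls included, came from cells that were then given 30 nM thapsigargin for 3 h, which blocks the ER calcium pump, so no group represents unstressed cells. One siRNA product was used against XBP1, and the experiments differed in transfection, solvent and duration of treatment. The labels number the replicates but do not say that they were separate cultures, so p-values measure the spread between these libraries. By Western blot, the study found phosphorylated eIF2α unaffected by MKC8866 in LNCaP cells under a longer thapsigargin treatment. In xenograft tumours given MKC8866, enzalutamide or both, neither cleavage of ATF6α nor phosphorylation of eIF2α differed significantly. The study reads the tumour result as the other UPR arms being unaffected. How the RNA levels below relate to these proteins was not tested.

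Libraries held 28713607 to 34509488 counted fragments. Levels are given as CPM, fragment counts relative to the library total, after TMM scaling over the 16 libraries, and a gene was called changed at a Benjamini-Hochberg adjusted p under 0.05 over all genes tested. All 7 prostate luminal markers examined were expressed, with KLK3, which encodes prostate-specific antigen, at 341 to 945 CPM and HOXB13, a prostate homeobox gene, at 351 to 444 CPM. Of the markers of other cell types, PTPRC, PECAM1, TP63, KRT5 and CD68 stayed at or below 0.688 CPM, whereas COL1A1 reached 24.7 to 36.5 CPM. After knockdown 4 of the 7 luminal markers fell, where 18.2% of all genes tested were called lower, and FOLH1, HOXB13 and KRT8 were not called. With MKC8866, KLK3 rose (log2 fold change 0.46), KRT18 fell (−0.22) and 5 were not called, where 3.11% of all genes were lower and 1.36% higher. The summed level of the 7 was 3182 to 3297 CPM in siCtrl against 2613 to 2746 CPM in siXBP1, and 3217 to 3389 CPM in Vehicle against 3512 to 3676 CPM in MKC8866. The part of these changes in the results below was not tested.

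XBP1, the target of the knockdown, was measured at 385, 421, 366 and 359 CPM in the siCtrl libraries and at 51.2, 54.2, 54.1 and 53.2 CPM in the siXBP1 libraries. It thus fell to 13.9% of control (log2 fold change −2.85, SE 0.051, adjusted p = 2.92e-20, edgeR). In the inhibitor experiment total XBP1 counts, which do not separate the spliced from the unspliced form, rose by a log2 fold change of 0.20 (adjusted p = 0.00493, edgeR). ERN1, which encodes IRE1α, fell by 0.16 on the log2 scale after knockdown (adjusted p = 0.00445) and rose by 0.25 with MKC8866 (adjusted p = 6.18e-04, edgeR).

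All 8 genes were expressed in every library, with at least 1200 fragments per gene and library. Per kilobase of exon, EIF2AK1 had the highest level in each group, from 43.2 ± 0.714 CPM per kb in siCtrl to 45.4 ± 1.28 CPM per kb in siXBP1 (SD, n = 4). EIF2AK2 had the lowest level, between 3.79 ± 0.0773 CPM per kb in siXBP1 and 6.23 ± 0.117 CPM per kb in siCtrl. EIF2AK3 ranked 2 of 8 in both control groups, at 15.1 ± 0.574 CPM per kb in siCtrl and 15.6 ± 0.217 CPM per kb in Vehicle, with no overlap between its libraries and those of ATF6B, the next gene. In the treated groups it ranked 7 of 8 in siXBP1, at 8.90 ± 0.557 CPM per kb, and 6 of 8 in MKC8866, at 9.27 ± 0.142 CPM per kb. In both treated groups its libraries overlapped those of MBTPS2. ATF6B, EIF2AK4, MBTPS1 and ATF6 had group means between 11.3 and 13.8 CPM per kb. The order of genes rests on the annotated exon lengths. These include bases shared with other genes, where fragments overlapping more than 1 gene were not counted. Shared bases made up 15.1% in EIF2AK3, 13.4% in MBTPS2, 9.59% in EIF2AK1, 4.05% in EIF2AK2 and 2.79% in ATF6B. ATF6, MBTPS1 and EIF2AK4 had 0. Per-length levels and the kinase shares below were not corrected for this. Without division by length, ATF6B was below EIF2AK2 in siCtrl (49.6 against 67.0 CPM), Vehicle and MKC8866, but above it in siXBP1.

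**Figure D1:**
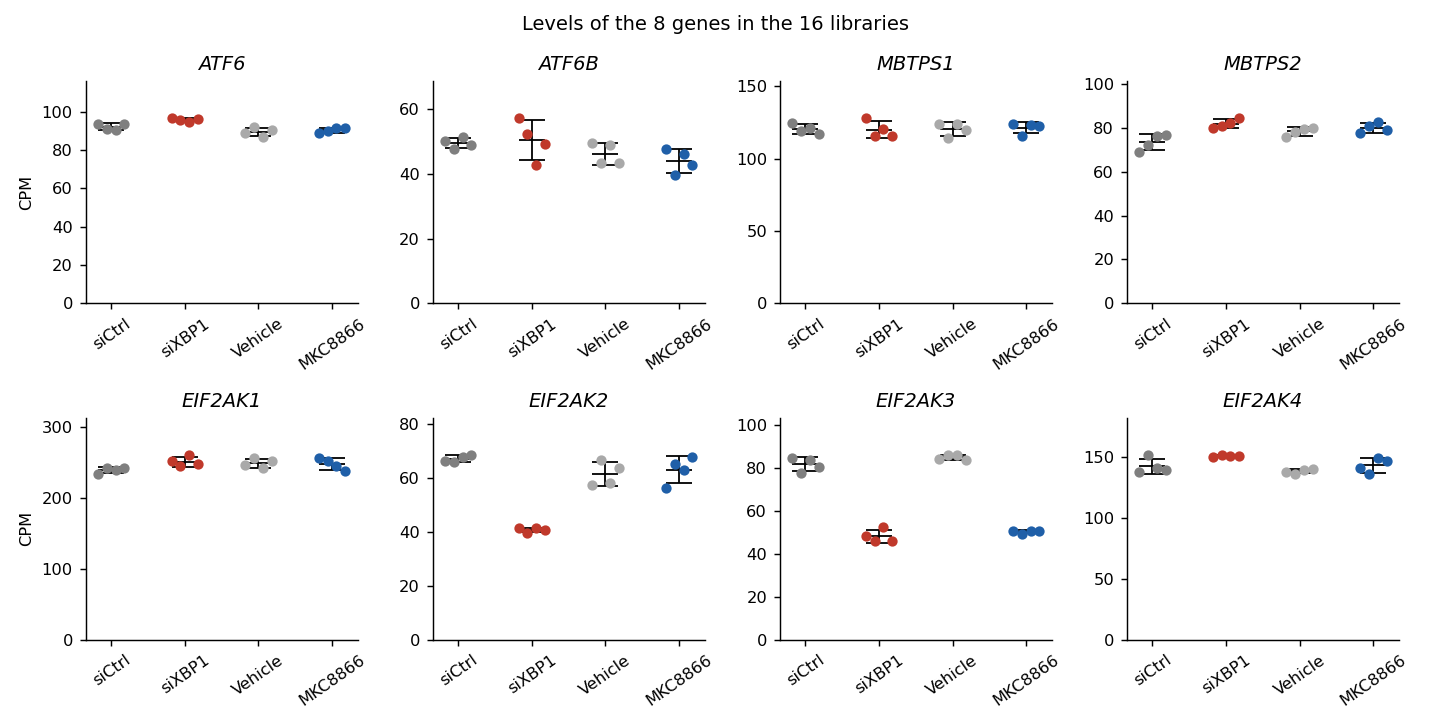
Level of each gene (CPM, linear axis from 0) in the 4 libraries of each group, with the mean and SD as bars. EIF2AK3 lay at 46.2 to 52.6 CPM in both treated groups and at 77.9 to 86.2 CPM in both control groups, whereas EIF2AK2 was low in siXBP1 alone of the 4 groups.

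After XBP1 knockdown, 2 of the 8 genes fell (EIF2AK2 and EIF2AK3), 1 rose (MBTPS2) and 5 were not called, in a comparison in which 34.8% of the 21021 genes tested were called (18.2% lower and 16.5% higher). With MKC8866, 1 of the 8 fell (EIF2AK3), none rose and 7 were not called by edgeR, against 4.47% of the 21045 genes tested (3.11% lower and 1.36% higher). No member had a positive change at an unadjusted p under 0.05 in that comparison, and DESeq2 also called 0 of them higher. In the direct test of the difference between the responses, 1 of the 8 was called (EIF2AK2), against 23.3% of 20357 genes. The experiments have separate controls, and the kind of treatment and the experiment cannot be told apart in this test.

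**Figure D2:**
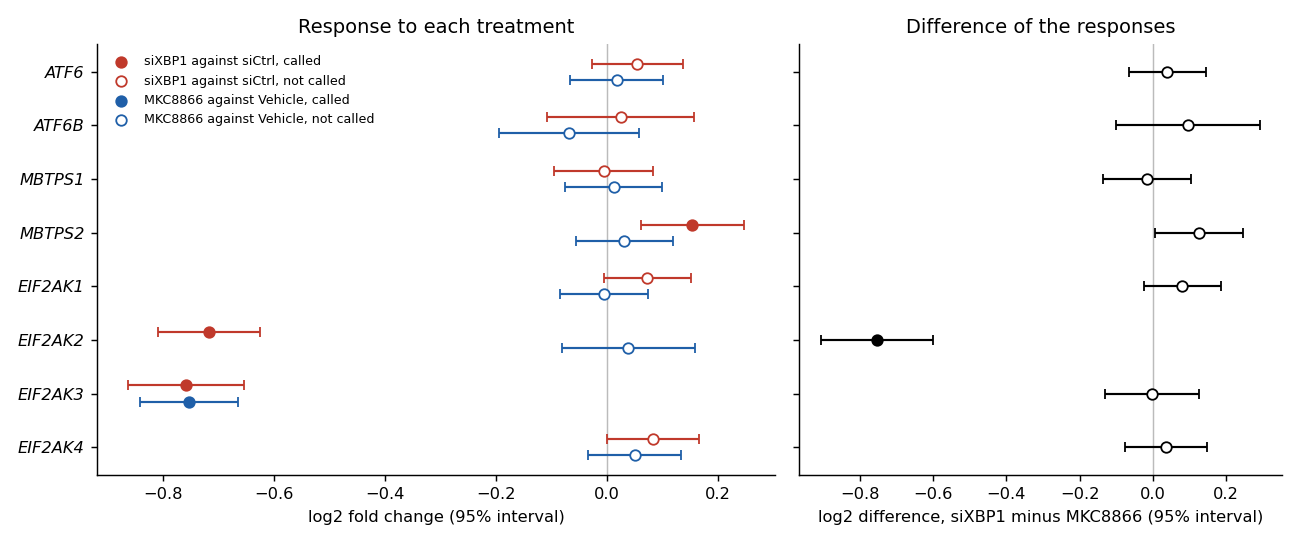
Left, log2 fold change with its 95% interval for each gene after XBP1 knockdown (red) and with MKC8866 (blue), filled where called at an adjusted p under 0.05. Right, the difference between the responses, siXBP1 minus MKC8866: EIF2AK2 stood at −0.75, and the interval of EIF2AK3 ran from −0.13 to 0.12.

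EIF2AK3 encodes PERK, the eIF2α kinase of the ER membrane. Its level in the siCtrl libraries was 84.8, 77.9, 83.8 and 80.7 CPM, and in the siXBP1 libraries 48.5, 46.2, 52.6 and 46.2 CPM. In the Vehicle libraries it was 84.2, 86.2, 85.9 and 83.8 CPM, and in the MKC8866 libraries 50.8, 49.2, 50.8 and 50.7 CPM. Every treated library was below every control library in both experiments, as was the case for 17.2% of all genes tested after knockdown and for 5.29% with MKC8866. Less RNA per cell and fewer cells that express a gene cannot be told apart in bulk RNA.

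EIF2AK3 fell to 59.1% of control after knockdown (log2 fold change −0.76, SE 0.050, adjusted p = 4.97e-11, edgeR) and to 59.3% with MKC8866 (−0.75, SE 0.042, adjusted p = 6.94e-12, edgeR). Ordered by p among genes with a negative fold change, it was number 21 of 10334 with the inhibitor and number 263 of 10353 after knockdown. The responses differed by −0.00 on the log2 scale, with a 95% interval from −0.13 to 0.12 (adjusted p = 0.979, edgeR interaction). Leaving out each library in turn gave −0.80 to −0.73 after knockdown and −0.76 to −0.75 with MKC8866, and every one of these fits called it lower.

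The gene occupies chr2:88556741-88627576 on the minus strand (GRCh38) with 5434 exon bases. Of these, 819 (15.1%) are shared with genes on the opposite strand, and fragments that overlap more than 1 gene were not counted. The partner with 781 shared bases, ENSG00000225420, had a mean of 0.0217 CPM. EIF2AK3-DT, a divergent transcript on the opposite strand, shares 38 bases at the 5′ end of the gene and was more abundant, at 7.86 ± 0.652 CPM in siCtrl and 4.90 ± 0.351 CPM in siXBP1 (SD, n = 4). EIF2AK3-DT fell after knockdown (log2 fold change −0.68, adjusted p = 5.64e-06, edgeR). With MKC8866 its log2 fold change was −0.16 (adjusted p = 0.403), and the responses differed (−0.52, adjusted p = 0.00246, edgeR interaction). Counting ignored strand, so fragments outside the shared bases were assigned by position alone.

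Promoter sequences of 7 of the 8 genes were taken from RefSeq (GRCh38.p14, 250 bases before to 50 after the start of each gene), and those of EIF2AK3 and EIF2AK2 are shown because these were the genes called lower. The promoter of EIF2AK1 was not analysed here. The RefSeq start differs from that of the Ensembl gene model used for counting. For EIF2AK3 it is at base 88627464 of chromosome 2, 112 bases inside the Ensembl model, and for EIF2AK2 at base 37156980, 85 bases inside it, and motif positions are counted from the RefSeq start. In EIF2AK3, CCAAT boxes begin 232, 194, 139 and 53 bases before the RefSeq start, the middle pair on the opposite strand, and the core GCCACGT, contained in many XBP1 binding sites, begins 41 bases after that start on the opposite strand. The first 3 boxes lie in chr2:88627577-88627714, before both starts, the 4th in chr2:88627500-88627529 and the core in chr2:88627415-88627444. All sequences are written 5′ to 3′ on the minus strand, the strand of the gene, with the CCAAT box (or its reverse ATTGG) or the core (reverse ACGTGGC) in capitals.
EIF2AK3 upstream: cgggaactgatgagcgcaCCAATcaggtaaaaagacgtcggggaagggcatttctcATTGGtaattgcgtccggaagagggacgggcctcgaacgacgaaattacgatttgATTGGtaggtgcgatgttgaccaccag
EIF2AK3 box nearest the start: cagcggccgcagCCAATgagagagcaaacg
EIF2AK3 core after the start: gcggcagaggccgggctgagACGTGGCcag

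The search covered both strands of each window and was set after these promoters had been seen. Of 35116 promoters in the table, 34.6% held CCAAT and 3.22% held GCCACGT; among the 7 genes, 3 (EIF2AK3, EIF2AK2 and ATF6B) held the former and EIF2AK3 held the latter. The ER stress element (CCAAT and CCACG, 9 bases apart, in 0.0769% of promoters), its second form (ATTGG and CCACG, 1 base apart, 0.0541%), the UPR element TGACGTGG (0.729%) and the cyclic AMP element TGACGTCA (1.85%) were found in none of the 7 windows. CCAAT is part of both forms of the ER stress element, and the UPR element shares letters with GCCACGT.

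EIF2AK2 encodes PKR, the eIF2α kinase activated by double-stranded RNA and a gene induced by interferon. The siCtrl libraries had 66.3, 65.8, 67.6 and 68.6 CPM, and the siXBP1 libraries 41.5, 39.7, 41.4 and 40.6 CPM. The Vehicle libraries had 57.4, 66.7, 58.1 and 63.8 CPM, and the MKC8866 libraries 56.2, 65.2, 63.0 and 67.7 CPM. All siXBP1 libraries were below the libraries of the other groups, while Vehicle and MKC8866 overlapped over most of their range. Of all genes tested, 17.2% had every siXBP1 library below every siCtrl library.

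EIF2AK2 fell to 60.8% of control after knockdown (log2 fold change −0.72, SE 0.044, adjusted p = 1.43e-11, edgeR), number 228 of 10353 among genes with a negative fold change. With MKC8866 the log2 fold change was 0.04 (SE 0.058, 95% interval −0.08 to 0.16, adjusted p = 0.835, edgeR). The responses differed by −0.75 (95% interval −0.91 to −0.60, adjusted p = 4.95e-09, edgeR interaction), and each of the 16 fits that left out a library called this difference, at −0.80 to −0.72.

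Within the inhibitor experiment, same-numbered libraries were taken as pairs, although the labels do not state a pairing. MKC8866 minus Vehicle in EIF2AK2 was −0.03, −0.03, 0.12 and 0.09 on the log2 scale for numbers 1 to 4. Library 1 was the lowest of its group in both Vehicle and MKC8866. With these numbers as a block, the change was 0.04 (adjusted p = 0.584, edgeR) and was again not called.

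EIF2AK2 lies at chr2:37099210-37157065 on the minus strand (GRCh38). Of its 10753 exon bases, 401 are shared with the pseudogene ARL14EPP1 (a mean of 0.00405 CPM) and 35 with GPATCH11, a gene on the opposite strand whose 3′ end meets that of EIF2AK2. GPATCH11 fell from 29.9 ± 2.49 to 21 ± 0.601 CPM after knockdown (SD, n = 4; log2 fold change −0.51, adjusted p = 9.14e-07, edgeR). With MKC8866 its log2 fold change was −0.11 (adjusted p = 0.415), and its responses differed by −0.40 (adjusted p = 0.00109, edgeR interaction). ENSG00000225420 and ARL14EPP1, the other overlapping genes of these kinases, were almost undetected. EIF2AK3-DT and GPATCH11 were called lower after knockdown, as were 18.2% of all genes tested.

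The EIF2AK2 promoter holds a pair of CCAAT boxes beginning 87 and 77 bases before the RefSeq start, in chr2:37157046-37157075. The interferon-response core (2 copies of GAAA, 2 bases apart, in 3.57% of all promoters and 1 of the 7 genes) begins 6 bases before the RefSeq start, in chr2:37156966-37156995, within the Ensembl model. The boxes and the core are in capitals.
EIF2AK2 CCAAT pair: atccagcgCCAATttaccCCAATcccgtag
EIF2AK2 interferon-response core: gtccaagggGAAAACGAAActgagaaccag

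EIF2AK1 (HRI) was measured at 240 ± 3.96 CPM in siCtrl and 252 ± 7.09 CPM in siXBP1, and at 250 ± 6.23 CPM in Vehicle and 248 ± 8.39 CPM in MKC8866 (SD, n = 4). The siXBP1 libraries lay above all siCtrl libraries, as for 15.5% of genes tested, but the change was not called (log2 fold change 0.07, SE 0.038, adjusted p = 0.152, edgeR). With MKC8866 it was −0.01 (adjusted p = 0.973). The gene lies at chr7:6022244-6059230 on the minus strand and shares 532 exon bases with AIMP2 on the opposite strand, which was called in neither comparison.

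EIF2AK4 (GCN2), at chr15:39934146-40035591 on the plus strand, was measured at 142 ± 6.10 CPM in siCtrl, 151 ± 0.798 CPM in siXBP1, 138 ± 1.89 CPM in Vehicle and 143 ± 5.97 CPM in MKC8866. The highest siCtrl library, at 151 CPM, reached the range of siXBP1. Neither the knockdown (log2 fold change 0.08, SE 0.040, adjusted p = 0.121) nor MKC8866 (0.05, SE 0.040, adjusted p = 0.637, edgeR) gave a call. Without siCtrl replicate 2 the knockdown change was 0.13 and was called (adjusted p = 0.0172). Scaling by library totals alone also called both EIF2AK1 (0.11, adjusted p = 0.0255) and EIF2AK4 (0.12, adjusted p = 0.0212) higher after knockdown.

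Among the 4 kinases, summed per kilobase in each library, EIF2AK1 held the largest share, at 56.5% ± 0.529 in siCtrl, 64.2% ± 0.175 in siXBP1, 57.7% ± 0.426 in Vehicle and 62.3% ± 1.46 in MKC8866 (SD, n = 4). The share of EIF2AK3 was 19.7% ± 0.869 in siCtrl against 12.6% ± 0.453 in siXBP1, and 20.1% ± 0.445 in Vehicle against 12.9% ± 0.256 in MKC8866. In both comparisons the libraries did not overlap and the exact two-sided permutation test gave p = 0.0286, the smallest that 4 against 4 libraries allow. Adjusted over the 6 ratio tests, p was 0.0857 in each, which does not pass 0.05. Both p were already the smallest possible, so these shares could pass only if other ratios reached that p too. The adjusted p thus reflects the number of libraries and tests, and not the size of the shift. EIF2AK2 held 8.17%, 5.37%, 7.33% and 8.16% in the same order of groups. The summed level of the 4 kinases was 76.3 ± 0.627 CPM per kb in siCtrl, 70.7 ± 1.87 in siXBP1, 77.9 ± 1.49 in Vehicle and 71.8 ± 0.807 in MKC8866.

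**Figure D3:**
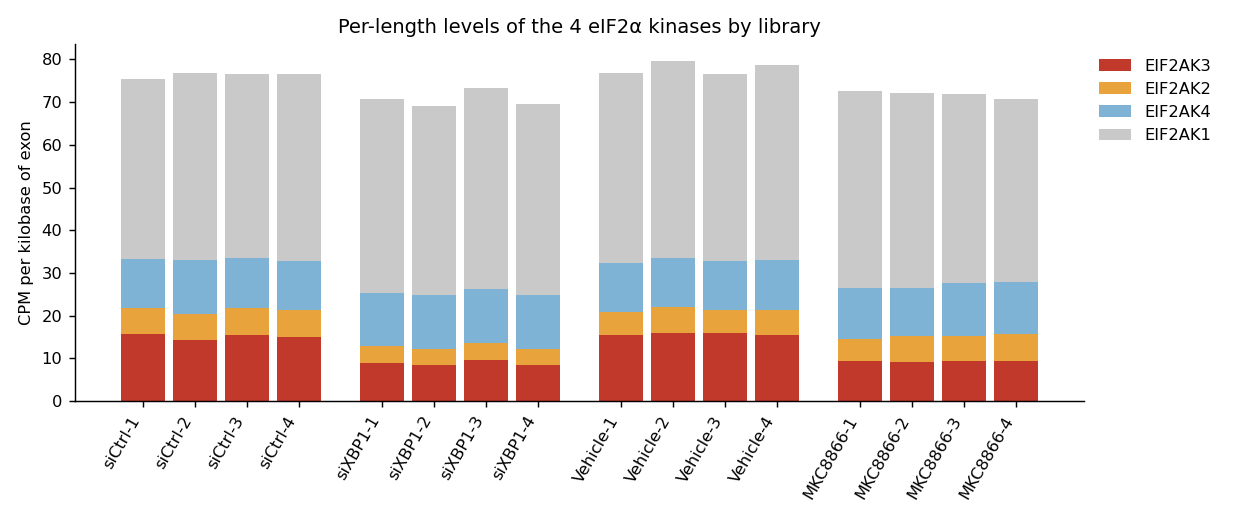
Stacked bars of the per-length level of each eIF2α kinase (CPM per kilobase of exon, from 0) in each of the 16 libraries. The red segment, EIF2AK3, was between 14.3 and 15.9 CPM per kb in the control libraries and between 8.50 and 9.68 in the treated ones, while EIF2AK1 made up 55.9% to 64.3% of each bar.

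ATF6, the ER stress sensor cleaved in the Golgi, lies at chr1:161766294-161964070 on the plus strand. Its siCtrl libraries had 93.8, 91.1, 90.3 and 93.5 CPM and its siXBP1 libraries 96.6, 95.4, 94.7 and 96.2 CPM. All siXBP1 libraries lay above all siCtrl libraries, as for 15.5% of genes tested, but the shift was small and not called (log2 fold change 0.05, SE 0.039, adjusted p = 0.322, edgeR). With MKC8866 the level was 90.4 ± 1.33 CPM against 89.4 ± 2.04 CPM in Vehicle (log2 fold change 0.02, 95% interval −0.07 to 0.10, adjusted p = 0.909, edgeR).

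ATF6B, its paralogue, lies at chr6:32098176-32128253 on the minus strand and shares 102 exon bases with TNXB, which had a mean of 0.352 CPM. Relative to its mean it varied most of the 8 genes in siXBP1, at 57.3, 52.5, 42.7 and 49.4 CPM in siXBP1 against 50.3, 47.8, 51.3 and 49.0 CPM in siCtrl. Neither the knockdown (log2 fold change 0.02, SE 0.064, adjusted p = 0.816) nor MKC8866 (−0.07, SE 0.061, adjusted p = 0.677, edgeR) gave a call. The per-length log2 ratio of ATF6 to ATF6B changed by 0.04 after knockdown (exact permutation p = 0.743) and by 0.09 with MKC8866 (exact permutation p = 0.4), and neither passed the adjustment over the 6 ratio tests.

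MBTPS1, the site-1 protease, lies at chr16:84053761-84116906 on the minus strand. Its group means were 120 ± 3.35 CPM in siCtrl, 120 ± 5.86 CPM in siXBP1, 120.5 ± 4.57 CPM in Vehicle and 121 ± 3.90 CPM in MKC8866 (SD, n = 4). The 95% interval of its log2 fold change was −0.10 to 0.08 after knockdown (adjusted p = 0.942) and −0.07 to 0.10 with MKC8866 (adjusted p = 0.942, edgeR).

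MBTPS2, the site-2 protease, lies at chrX:21839636-21885424 on the plus strand. The siCtrl libraries had 69.2, 72.2, 76.5 and 76.6 CPM, and the siXBP1 libraries 80.1, 80.9, 82.1 and 84.4 CPM. All siXBP1 libraries lay above all siCtrl libraries, as for 15.5% of genes tested. The gene rose to 111% of control (log2 fold change 0.15, SE 0.045, adjusted p = 0.00944, edgeR). Every left-out library kept this call, with an adjusted p of at most 0.0314.

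In the inhibitor experiment MBTPS2 was measured at 78.3 ± 1.90 CPM in Vehicle and 79.9 ± 2.15 CPM in MKC8866 (log2 fold change 0.03, adjusted p = 0.809, edgeR). The difference between the responses was 0.12 and not called (adjusted p = 0.133). The siCtrl mean, 73.6 ± 3.59 CPM, was the lowest of the 4 groups, and the Vehicle libraries overlapped it. The log2 ratio of MBTPS1 to MBTPS2 changed by −0.16 after knockdown (exact permutation p = 0.0857, adjusted 0.171) and by −0.02 with MKC8866. Of the exon bases of MBTPS2, 13.4% are shared with other genes, 1093 of them with the intronless YY2 on the same strand, which was called in neither comparison.

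Between the control groups, siCtrl against Vehicle, edgeR called 0 of the 8 genes, against 15% of 20357 genes. At an unadjusted p under 0.05 there were 2, EIF2AK2 (log2 difference 0.12, adjusted p = 0.116) and MBTPS2 (−0.09, adjusted p = 0.161), and DESeq2 also called 0. Without Vehicle replicate 2, EIF2AK2 was called (0.17, adjusted p = 0.0387). Transfection, solvent and experiment cannot be told apart in this comparison.

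The genes whose log2 CPM was most like that of each member over the 16 libraries were named from 15037 genes, as a description. The libraries fall into the same 4 groups for every gene, so likeness largely restates the response to treatment. For EIF2AK3 they were WIPI1, an autophagy gene (Pearson r = 0.989), and MSTO1, a regulator of mitochondrial shape (0.989). Both fell in both comparisons, WIPI1 by 0.70 and 0.65 on the log2 scale and MSTO1 by 1.22 and 1.06, after knockdown and with MKC8866 respectively. For EIF2AK2 they were LIMS1, a focal adhesion adaptor (0.987), and SHOC2, a scaffold of the RAS pathway (0.983), with knockdown log2 fold changes of −0.66 and −0.54 and inhibitor changes of 0.07 and 0.05 that were not called.

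The other members had weaker matches. These were PCMTD1 (0.925) and MAP3K7 (0.914) for ATF6, PLEKHA6 (0.950) and ADGRL1 (0.915) for EIF2AK4, and the unnamed ENSG00000278385 (0.899) and MAL2 (0.890) for MBTPS2. They were CNOT3 (0.859) and STK11IP (0.858) for ATF6B, GORASP1 (0.825) and SIN3B (0.808) for MBTPS1, and H2AZP3 (0.819) and OAZ1 (0.816) for EIF2AK1. H2AZP3 is a processed copy of a histone gene, and its counts are uncertain because reads may belong to the parent gene.

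The partners of these sensors were followed in 6 gene lists, each described by its calls and its median log2 fold change beside the median of all genes tested, which was 0.00 in both comparisons. HSPA5 and SEL1L stand in both ATF6 lists, and PPP1R15A in both the eIF2 and the ATF4 lists. Of 72 distinct list genes tested, 29 fell and 20 rose after knockdown, 49 in all, where 18.2% of all genes tested were lower and 16.5% higher. With MKC8866 17 were called, all lower, where 3.11% of all genes were lower and 1.36% higher. The counts of each list that follow stand beside these shares. The lists were chosen with earlier results of these data known, so counts above these shares are description only. When same-numbered libraries of the inhibitor experiment were paired as blocks, 29 were called, against 13% of all genes.

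Of 14 genes that hold, reduce, degrade or assist ATF6, 6 fell, 5 rose and 3 were not called after knockdown (median −0.05). The 5 that rose were HSPA5 (log2 fold change 0.30), YY1 (0.28), GTF2I (0.19), NFYA (0.16) and NFYC (0.14). With MKC8866, 6 fell, none rose and 8 were not called (median −0.07); DESeq2 called 0 higher as well, and none had a positive change at an unadjusted p under 0.05. SYVN1, the ubiquitin ligase HRD1, fell from 320 ± 17.4 to 117 ± 8.69 CPM after knockdown (log2 fold change −1.45, adjusted p = 1.01e-15) and from 294 ± 15 to 133 ± 8.22 CPM with MKC8866 (−1.14, adjusted p = 1.69e-14, edgeR). WFS1, the ER membrane protein wolframin that directs ATF6 to this ligase, fell by 1.15 and 0.92 on the log2 scale. PDIA5, a disulfide isomerase that acts on ATF6, fell by 0.44 after knockdown and by 0.33 with MKC8866. SEL1L, the partner of HRD1, fell by 0.22 after knockdown and by 0.33 with MKC8866.

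The protease list comprised 11 genes: MBTPS1 and MBTPS2 substrates, the escort SCAP, and INSIG1 and INSIG2, which retain SCAP in the ER. Of these, CREB3L1 and CREB3L3 were too low to test. After knockdown 5 fell, INSIG1 among them (−0.21), 2 rose and 2 were not called (median −0.21). With MKC8866, 1 fell, none rose and 8 were not called (median −0.01), while the block called 4 lower and 3 higher; DESeq2 called 2 lower and 0 higher, and 2 had a positive change at an unadjusted p under 0.05. CREB3L2, an ER-anchored factor cleaved like ATF6, fell from 157 ± 6.84 to 59.2 ± 2.71 CPM after knockdown (log2 fold change −1.41, adjusted p = 3.45e-16) and from 134 ± 4.97 to 73.2 ± 3.92 CPM with MKC8866 (−0.87, adjusted p = 2.29e-12, edgeR). Its relative CREB3L4, known for its expression in prostate, fell by 0.60 after knockdown, and GNPTAB, a Golgi enzyme precursor cleaved by MBTPS1, fell by 0.26.

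Of 12 regulators of the eIF2α kinases, 5 fell, 1 rose and 6 were not called after knockdown (median −0.05), and 2 fell, none rose and 10 were not called with MKC8866 (median −0.02). DESeq2 called 0 higher with MKC8866, and none had a positive change at an unadjusted p under 0.05. DNAJC3 (P58IPK), an ER co-chaperone named as an inhibitor of PKR and PERK, fell from 234 ± 2.35 to 166 ± 7.36 CPM after knockdown (log2 fold change −0.50, adjusted p = 1.26e-09) and from 223 ± 13 to 159 ± 8.34 CPM with MKC8866 (−0.49, adjusted p = 7.48e-08, edgeR). The study names P58IPK as a target of the spliced form of XBP1 and measured its RNA by qPCR in both treatments. HSP90AB1, a cytosolic chaperone of kinases, fell by 0.46 after knockdown, and IMPACT, which competes with GCN2 for its activator GCN1, fell by 0.39. NCK1, an adaptor that promotes eIF2α dephosphorylation, fell by 0.18 with MKC8866 (adjusted p = 0.0243). This call was lost without Vehicle replicate 2, 3 or 4 or MKC8866 replicate 1 or 3, with adjusted p of 0.0522 to 0.107.

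The 13 genes of the eIF2 cycle encode eIF2, its exchange factor eIF2B and the phosphatases of eIF2α. After knockdown 7 fell, 2 rose and 4 were not called (median −0.13). PPP1CB, a catalytic subunit of protein phosphatase 1, fell by 0.28, EIF2B3, a subunit of eIF2B, by 0.27 and PPP1R15B, the constitutive targeting subunit of the phosphatase, by 0.26 on the log2 scale. With MKC8866 edgeR called 0 of the 13 (median −0.00). DESeq2 and the block also called 0, and 0 had an unadjusted p under 0.05; PPP1R15A, the stress-induced targeting subunit GADD34, was at 34.7 ± 2.05 CPM in Vehicle and 32.9 ± 2.02 CPM in MKC8866 (adjusted p = 0.618, edgeR).

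As a list of ATF6 targets, 11 ER chaperone and degradation genes were counted. The study also names BiP, which is in this list, as a target of the spliced form of XBP1. Which factor acted on these genes was not tested. After knockdown 5 fell, 4 rose and 2 were not called (median −0.01). HSPA5, which encodes BiP, rose from 3827 ± 200.3 to 4706 ± 256 CPM (log2 fold change 0.30, adjusted p = 1.69e-05), as did HSP90B1, which encodes GRP94 (0.27, adjusted p = 2.45e-05, edgeR). HYOU1 (GRP170), a nucleotide exchange factor of BiP, fell by 0.32 after knockdown and by 0.43 with MKC8866. With MKC8866, 9 fell, none rose and 2 were not called (median −0.23), and DESeq2 called 0 higher, with none at a positive change and an unadjusted p under 0.05. HSPA5 was among those that fell (−0.15, adjusted p = 0.00476, edgeR), opposite to its change after knockdown. PDIA4 and MANF likewise rose after knockdown (0.17 and 0.15) and fell with MKC8866 (−0.22 and −0.23), all called. HSP90B1 was not called with MKC8866 (0.01). HERPUD1, an ER degradation gene, fell from 1625 ± 17.2 to 1066 ± 38.0 CPM with MKC8866 (−0.61, adjusted p = 7.16e-12, edgeR), CRELD2 by 0.60 and SDF2L1 by 0.49 on the log2 scale. After knockdown HERPUD1 (−0.25), CRELD2 (−0.25) and SDF2L1 (−0.23) were also called lower.

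Downstream of the eIF2α kinases, 16 ATF4 and CHOP genes were counted. After knockdown 2 fell, 7 rose and 7 were not called (median 0.10). CEBPB, a transcription factor, rose from 44.5 ± 4.71 to 76.9 ± 11.6 CPM (log2 fold change 0.79, adjusted p = 8.21e-08) and DDIT3, which encodes CHOP, from 179 ± 6.70 to 247 ± 9.44 CPM (0.46, adjusted p = 6.79e-09, edgeR). ATF3 fell by 0.42. With MKC8866, 1 fell (ATF4, by 0.17, adjusted p = 0.00715), none rose and 15 were not called (median −0.01). The block called 4 lower and 2 higher, DESeq2 called 2 lower and 0 higher, and 2 had a positive change at an unadjusted p under 0.05.

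**Figure D4:**
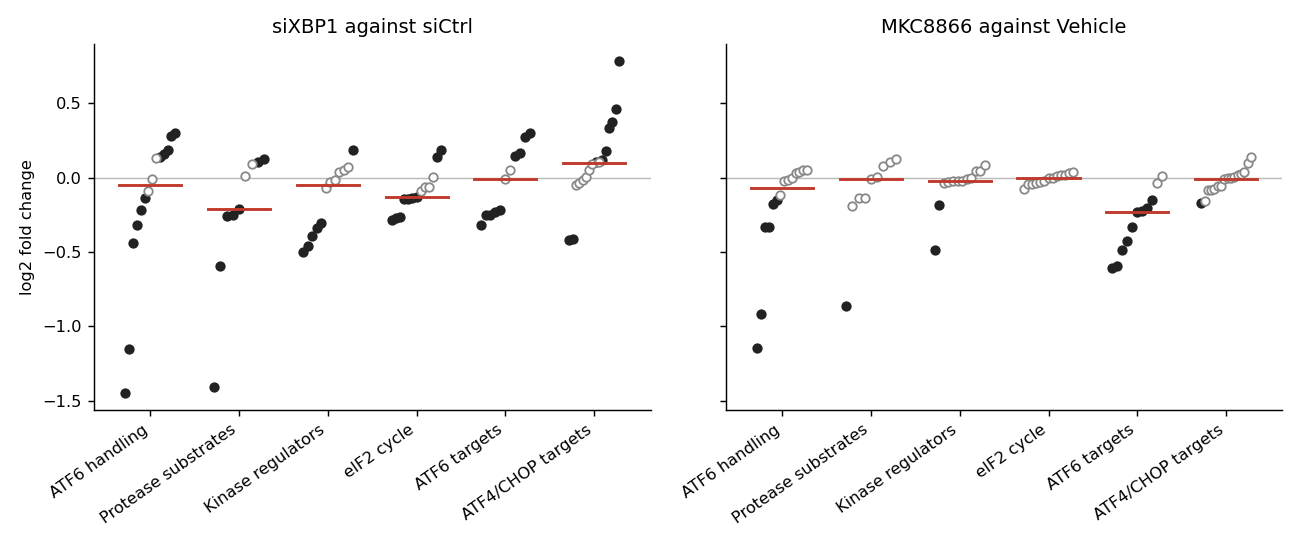
Log2 fold change of each tested gene of the 6 lists, after XBP1 knockdown (left) and with MKC8866 (right), filled where called at an adjusted p under 0.05, with the list median as a red line. The ATF6 target median lay at −0.01 on the left and −0.23 on the right, and that of the eIF2 cycle genes at −0.13 and −0.00.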

How the data were processed

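RNA from 16 LNCaP libraries was sequenced as stranded paired-end libraries. The authors aligned reads with STAR 2.5.2a to hg38 and counted fragments with featureCounts 1.5.0 on the Ensembl GRCh38 annotation, without strand, multimapping fragments or fragments on more than 1 gene. The deposited values are raw counts per gene. Symbols were matched for 56948 of 58051 genes. A gene was tested if each group had a library with over 5 counts. Tests were run with edgeR 4.0.16 in R 4.3.3 (TMM, quasi-likelihood F test, two-sided), in a separate model for each treatment and its control, as in the study's methods. The difference of the responses and siCtrl against Vehicle were tested in a fit of all 16 libraries. Biological coefficients of variation were 5.40% (knockdown) and 4.97% (inhibitor). Ratios used exact permutation tests (scipy 1.17.1) adjusted over 6 tests. Exon lengths deposited with the counts gave CPM per kb.

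Over 15037 genes, deviations of same-numbered libraries correlated at 0.102 to 0.379 in the inhibitor experiment. These numbers were taken as pairs because every such correlation was over 0.1. Unlike numbers also passed that value, with MKC8866 replicate 1 and Vehicle replicate 3 at 0.159, and MKC8866 replicate 3 and Vehicle replicate 1 at 0.136. The labels do not state a pairing.

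Members and gene lists were chosen with earlier results of these data known. Named genes were the members, XBP1, ERN1, genes overlapping members, the 3 called genes per list and comparison with the largest change (2 by p where none was called), and the 2 genes most like each member with a mean of at least 1 CPM. Other list genes given for contrast stand outside this rule and outside the count of named genes whose responses differed. Promoters were searched for motifs chosen after those sequences were seen. Alternatives were DESeq2 1.42.0, other scalings and filters, the replicate block, one fit of all libraries and the removal of each library. Some luminal markers are not reported here. The scripts were tested on simulated data. Figures were drawn with matplotlib 3.10.9.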

Additional observations from a re-analysis of the deposited data

Results flagged for a closer look

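In 2 of 52 groups of 4 libraries tested for an outlying value, 1 library stood apart, and chance marks about 1 group in 20. EIF2AK3 in MKC8866 replicate 2 was at 49.2 CPM, below the other MKC8866 libraries, which spanned a narrow range. ERN1 in Vehicle replicate 2 was at 159 CPM, below the other Vehicle libraries.

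Knockdown and inhibitor responses differed for 29 of 58 named genes in the edgeR interaction test, against 23.3% of all genes tested. Most of the 58 had been named for the size of a response or for their likeness to a member, and the kind of treatment and the experiment cannot be told apart. Values are log2, siXBP1 minus MKC8866. Of the members and the inhibited pathway, EIF2AK2 differed by −0.75 (adjusted p = 4.95e-09), XBP1 by −3.05 (5.04e-23) and ERN1 by −0.40 (9.06e-06). Among ATF6 handling and protease substrate genes, SYVN1 differed by −0.30, WFS1 by −0.23, CREB3L2 by −0.54, CREB3L4 by −0.46 and GNPTAB by −0.25. Among kinase regulators and eIF2 cycle genes, HSP90AB1 differed by −0.44, IMPACT by −0.38, NCK1 by 0.24, PPP1CB by −0.31 and PPP1R15B by −0.28. Among ATF6 targets the differences were positive, at 0.45 for HSPA5, 0.26 for HSP90B1, 0.36 for HERPUD1, 0.35 for CRELD2 and 0.26 for SDF2L1. Among ATF4 and CHOP genes, CEBPB differed by 0.85, DDIT3 by 0.55 and ATF3 by −0.52. Of the genes that overlap a member, EIF2AK3-DT differed by −0.52 and GPATCH11 by −0.40. Of the genes most like a member, LIMS1 differed by −0.72, SHOC2 by −0.58, MAL2 by 0.38, ENSG00000278385 by 0.45, PCMTD1 by 0.20 and OAZ1 by 0.16. The largest adjusted p among these 29 was 0.0469, for OAZ1.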

How the results depend on the processing

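EIF2AK3 and EIF2AK2 after knockdown, EIF2AK3 with MKC8866, MBTPS2 after knockdown and the EIF2AK2 difference of the responses stayed called in the same direction under every alternative run. The number of members called after knockdown was 3, and 5 with library totals alone, which called EIF2AK1 and EIF2AK4 in addition. Leaving out siCtrl replicate 2 also added EIF2AK4 to the members called after knockdown. Between siCtrl and Vehicle the number was 0, and 0 to 1 when each library was left out, with EIF2AK2 called without Vehicle replicate 2. With the replicate block, MKC8866 called 29 list genes in place of 17 and 2746 of all genes in place of 941, and the block changed no call of a member. In the knockdown experiment, deviations of same-numbered libraries correlated at 0.00110 to 0.0680, so the numbers were not taken as pairs, and the block gave 7323 calls in place of 7311. NCK1 with MKC8866 lost its call without each of 5 single libraries. No ratio test could pass 0.05 when a library was left out or signs were flipped within numbers, where the smallest p is 0.0571 and 0.125. The cause of these changes was not tested. In neither experiment did every library correlate best with its own number. Each member had at least 1200 fragments per library, with a counting error of 1.13% to 2.83% per library. The coefficient of variation between replicates was 0.530% to 12.1%, and below the counting error in 8 of 32 gene and group combinations.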
